A study of Homo sapiens with 20 samples.

Results

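The genes described here are the transcriptional coactivators YAP1 and WWTR1 (also called TAZ), the TEAD factors TEAD1 and TEAD2, the target genes CTGF, CYR61 and ANKRD1, and the feedback regulators AMOTL1, AMOTL2 and LATS2. They are 10 of the 20237 coding records of the series, which holds 38369 records in all. Each symbol was found among the names of the coding records, and each had 1 such record. ANKRD1 was chosen by its measured fall from day 0 to day 18, and the other genes as members of the same pathway, with results of these data already known. All their levels are therefore given as a description.

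H1 is an established line of human embryonic stem cells. Neural stem cells (NSCs) made from it were grown with FGF on Matrigel and then differentiated into neurons without FGF and with BDNF. Polyadenylated RNA was sequenced from 20 cultures. There were 2 cultures of day 5, after the submitters had left out an outlier, and 3 of each of days 0, 1, 2, 4, 11 and 18. Day 0 is the undifferentiated NSC state, and cultures of days 5, 11 and 18 had been moved at day 4 from Matrigel to poly-D-lysine and laminin. All groups share 1 cell line and carry no genetic change named in the labels. The deposited files give 1 FPKM value per record and day (fragments per kilobase of transcript, scaled to the mapped fragments of the library), which the authors' program had pooled from all cultures of the day. No spread between cultures and no depth can be given for any value, and nothing below carries a test. Levels over time are listed in order of time, from day 0 through days 1, 2, 4, 5 and 11 to day 18.

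In the Hippo pathway, a chain of kinases that ends in LATS1 and LATS2 phosphorylates YAP1 and WWTR1, which keeps them in the cytoplasm. When the kinases are inactive, as in spread, strongly attached or sparse cells, both coactivators enter the nucleus and bind TEAD factors, since neither binds DNA by itself. Among the genes they switch on are CTGF and CYR61, secreted matricellular proteins, ANKRD1, an ankyrin repeat protein of muscle and stressed cells, and genes that restrain the pathway in turn, such as LATS2 and the angiomotin family. In the developing brain, YAP1 is known from progenitors of the ventricular zone and is low in neurons.

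TEAD factors recognise the hexamer GGAATG, read as CATTCC on the other strand. Promoter windows reaching from 250 bases before to 50 bases after the gene start were taken from RefSeq (build GRCh38.p14), where 8 of the 10 genes had at least 1 window, and TEAD1 and CYR61 were not matched. The hexamer was present on either strand in 5 of the 11 windows, those of YAP1, CTGF, ANKRD1, AMOTL2 and LATS2. It was present in 14.0% of all 35116 RefSeq windows of this length. The CTGF window held 3 matches, where 44 windows (0.125%) held at least 3, and the ANKRD1 window held 2, where 1.36% of all windows held at least 2. A match is a description of the letters and not a binding site. The windows of CTGF and ANKRD1 are shown because they held more matches than the windows of the other members. They lie at chr6:131951323-131951622 and chr10:90921038-90921337, both on the minus strand, and are printed 5′ to 3′ with the matches in capitals:
CTGF: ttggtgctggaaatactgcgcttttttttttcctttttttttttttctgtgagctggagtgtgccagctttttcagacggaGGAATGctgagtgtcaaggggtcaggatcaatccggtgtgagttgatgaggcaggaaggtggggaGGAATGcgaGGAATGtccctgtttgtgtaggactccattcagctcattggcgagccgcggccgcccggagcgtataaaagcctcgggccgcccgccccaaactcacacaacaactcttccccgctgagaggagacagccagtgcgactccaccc
ANKRD1: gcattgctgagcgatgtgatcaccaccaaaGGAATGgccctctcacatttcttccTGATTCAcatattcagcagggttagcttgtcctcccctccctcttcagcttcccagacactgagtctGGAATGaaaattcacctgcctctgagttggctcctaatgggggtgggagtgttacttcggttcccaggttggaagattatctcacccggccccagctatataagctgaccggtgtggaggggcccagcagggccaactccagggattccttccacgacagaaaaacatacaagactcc

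In the CTGF window, the matches began 169, 104 and 95 bases before the gene start. In the ANKRD1 window they began 220 and 128 bases before it, and the run of capitals between them, 195 bases before the start, is a match to TGANTCA, the motif of AP-1 factors. That motif was found in 7.71% of all windows and in no other window of the 10 genes. The other 3 genes had 1 TEAD match each, which began 162 bases before the start in YAP1 (chr11:102110273-102110302, plus strand), 69 bases before it in a second window of AMOTL2 (chr3:134374499-134374528, minus strand) and 9 bases after it in LATS2 (chr13:21061560-21061589, minus strand). The 30 bases around each are:
YAP1: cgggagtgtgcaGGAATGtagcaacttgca
AMOTL2: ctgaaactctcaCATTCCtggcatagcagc
LATS2: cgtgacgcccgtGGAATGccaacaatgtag

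To compare days, each FPKM was raised by a pseudocount of 0.1 and the log2 ratio was taken, which understates the change of low genes. The 11793 coding records averaging at least 1 FPKM over the days, all 10 genes included, had a median log2 change against day 0 of -0.11, -0.05, -0.07, -0.15, -0.32 and -0.60 on the 6 later days. Log2 changes below are relative to this median unless called deposited. A gene was counted as changed when it lay at least 2-fold (1 on the log2 scale) from the median. To place a value without replicates, the share of all 11793 records that lay as low or as high is given.

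Both coactivators were highest in NSCs and lowest at day 18. FPKM of YAP1 (hg19 chromosome 11, 101981210 to 102104154, plus strand, 10 exon blocks) was 46.0, 35.1, 35.7, 35.7, 28.0, 23.3 and 15.0. The level was lower after the first day, the same until day 4 and lower again on each later day. FPKM of WWTR1 (chromosome 3, 149238033 to 149421115, minus strand, 9 exon blocks) was 29.0, 26.6, 21.1, 19.4, 15.7, 12.2 and 7.53 on the same days, lower at every step. At day 18 the log2 change was -1.01 for YAP1 (deposited -1.61) and -1.33 for WWTR1 (deposited -1.93). YAP1 lay just past the 2-fold limit, and short of it (-0.89) when the median was taken over records averaging at least 10 FPKM.

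YAP1 held 61.3% of the summed FPKM of both coactivators at day 0 and 66.6% at day 18, between 56.9% (day 1) and 66.6% over the 7 days. A ratio within a day does not depend on the scaling of the days, and the share of YAP1 moved by less than 10 percentage points while the sum went from 75.0 to 22.5. In the authors' own testing, the program marked 4 of the 6 steps of YAP1 as failed, all those from day 0 to day 5. An FPKM value was given on each day, and whether the failure also bears on these values cannot be told here.

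**Figure D1:**
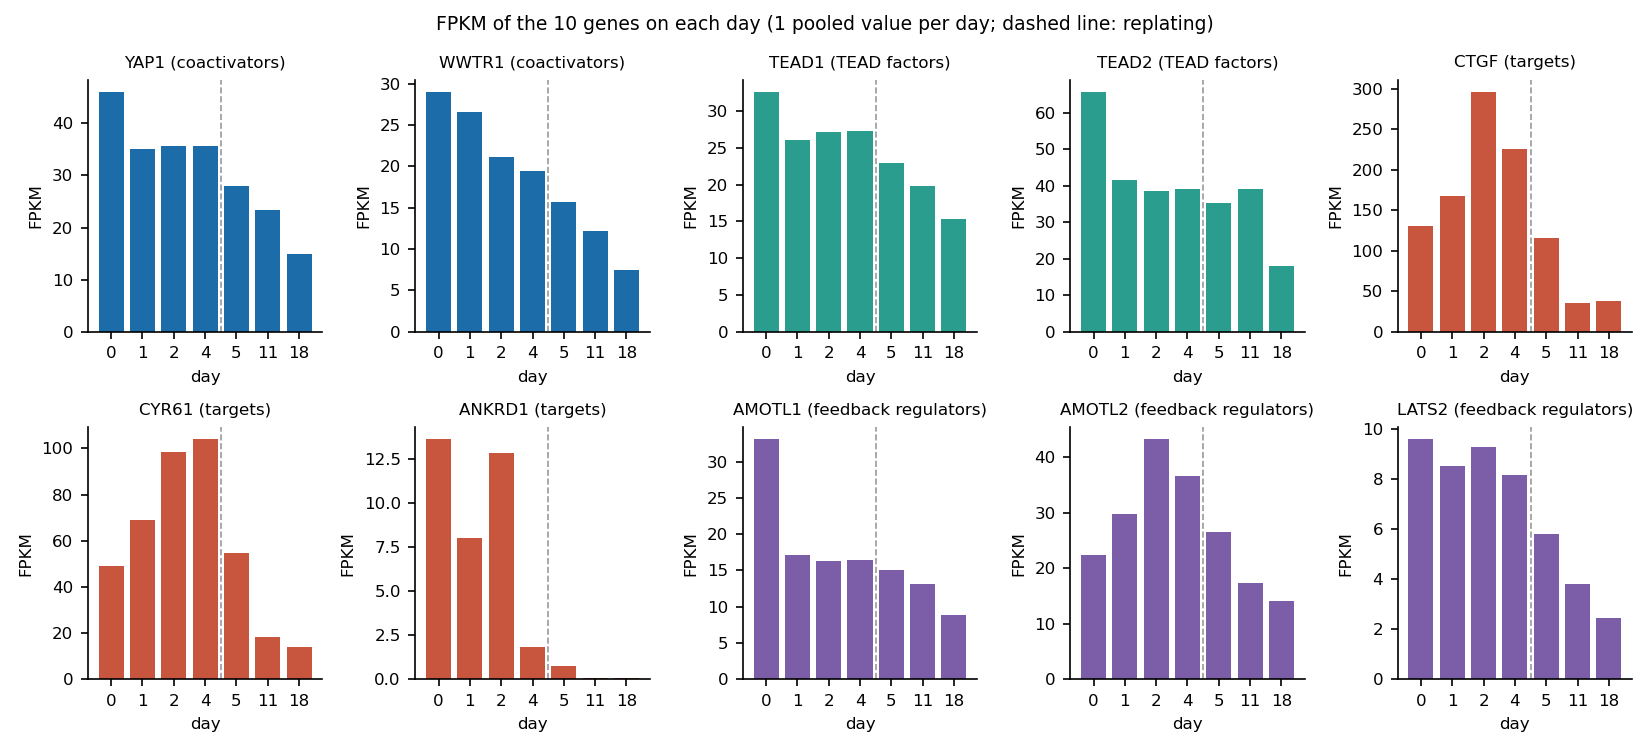
FPKM (y axis, from 0, scales differ) of the 10 genes on days 0 to 18 (x axis, evenly spaced), 1 bar per pooled deposited value, coloured by role, with no error bars because each value pools the cultures of a day; the dashed line marks replating. CTGF, CYR61 and AMOTL2 are highest at day 2 or 4, the other 7 genes at day 0.

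The TEAD factors, which carry the DNA-binding part of the complex, followed different courses. FPKM of TEAD1 (chromosome 11, 12695969 to 12966298, plus strand, 14 exon blocks) was 32.6, 26.1, 27.2, 27.3, 23.0, 19.8 and 15.4. Its log2 change at day 18 was -0.48 (deposited -1.07), and 26.7% of the records lay as low or lower. Among YAP1, WWTR1, TEAD1 and TEAD2, TEAD1 was nearest to the median. FPKM of TEAD2 (chromosome 19, 49843857 to 49865714, minus strand, 14 exon blocks), the TEAD factor known from embryonic neural tissue, was 65.7, 41.7, 38.5, 39.0, 35.3, 39.1 and 18.0. Most of its decline lay in the first step (log2 change -0.55) and the last (-0.84), with a plateau from day 1 to day 11.

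TEAD3 and TEAD4, the remaining members of the family, were lower still by the end. TEAD3 had 20.8, 17.0, 18.2, 13.3, 13.2, 7.31 and 4.36 FPKM. TEAD4 had 16.0, 10.2, 11.1, 9.82, 5.06, 2.53 and 1.02 FPKM. The log2 changes at day 18 were -1.63 and -3.24. TEAD4 therefore held 11.8% of the summed TEAD FPKM at day 0 and 2.63% at day 18, while the share of TEAD1 went from 24.1% to 39.7%. TEAD2 held 48.6% and 46.4%, the largest share on all 7 days. The summed FPKM of the family went from 135 to 38.8.

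The targets CTGF and CYR61 were first above their NSC level and later below it, while FPKM of both coactivators was below its NSC level from day 1 on. FPKM of CTGF (annotated as CCN2, chromosome 6, 132269319 to 132272518, minus strand, 5 exons) was 131, 168, 296, 226, 116, 35.6 and 37.6. FPKM of CYR61 (annotated as CCN1, chromosome 1, 86046444 to 86049646, plus strand, 5 exon blocks) was 48.9, 68.9, 98.4, 104, 54.6, 18.2 and 13.8. The highest day was day 2 for CTGF and day 4 for CYR61, and at day 5 the deposited ratio to day 0 was 0.884 for CTGF and 1.12 for CYR61. At the peak they were 2.26 times (CTGF) and 2.13 times (CYR61) their deposited day 0 level.

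ANKRD1 did not exceed its NSC level and was low from day 4 on. Its FPKM (chromosome 10, 92671857 to 92681032, minus strand, 9 exons) was 13.6, 8.01, 12.8, 1.83, 0.734, 0.0720 and 0.0400. Between days 2 and 4 its log2 change was -2.75, the lowest of all 11793 records in that step, while CYR61 had 0.08 and CTGF -0.39. This step is part of the fall by which ANKRD1 was chosen, so nothing is read from its rank in any step. On days 11 and 18 its FPKM was below the pseudocount, which therefore limits the log2 change of -6.02 at day 18 (deposited -6.62).

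**Figure D2:**
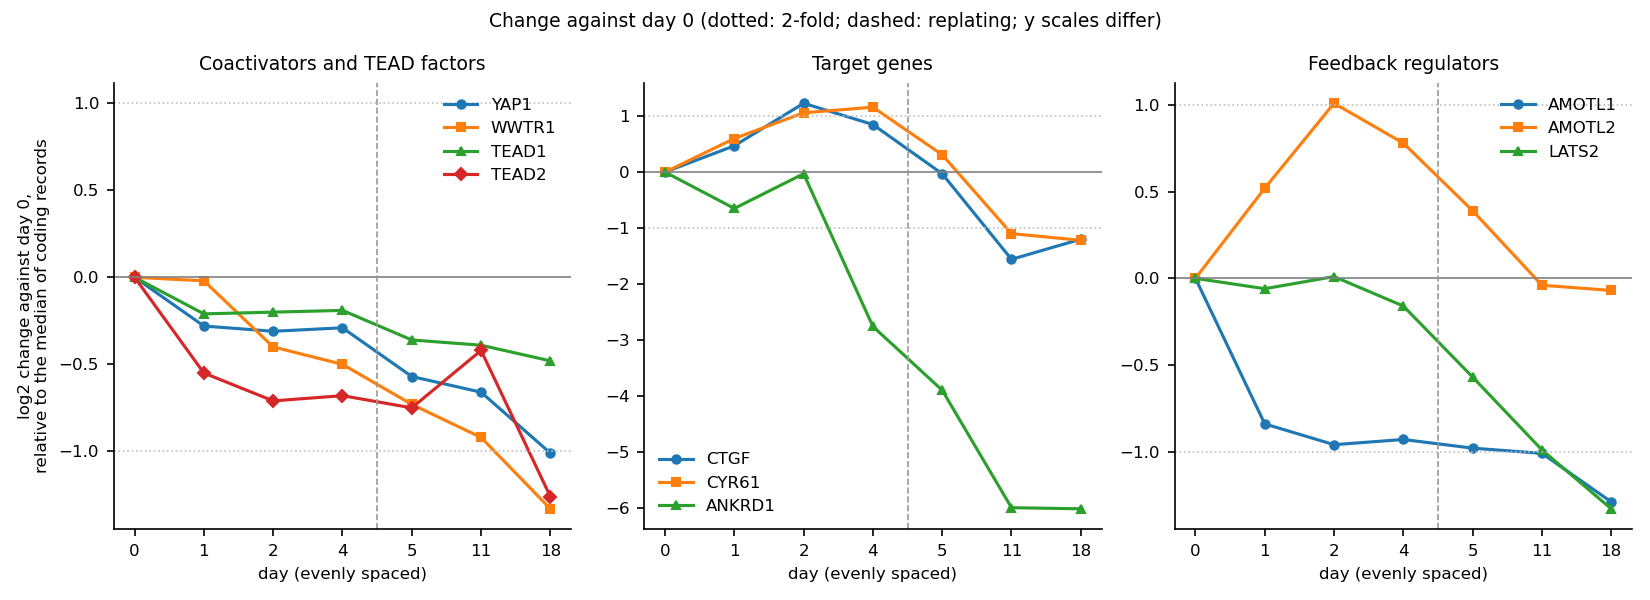
Log2 change of FPKM + 0.1 against day 0, relative to the median of coding records (y axis, scales differ between panels), for coactivators and TEAD factors, targets, and feedback regulators on days 0 to 18 (x axis, evenly spaced); each point is 1 pooled value. CTGF, CYR61 and AMOTL2 lie above 1 at day 2, and ANKRD1 drops to -2.76 at day 4.

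Among the feedback regulators, AMOTL2 followed the course of CTGF and CYR61. FPKM of AMOTL2 (chromosome 3, 134070694 to 134094259, minus strand, 12 exon blocks), an angiomotin-like protein that binds YAP1 and is a YAP target itself, was 22.3, 29.8, 43.2, 36.5, 26.5, 17.3 and 14.0. Its log2 change was 1.01 at day 2, just past the 2-fold limit (short of it as deposited, 0.95, with a pseudocount of 1, 0.97, and with a filter of 0.1 FPKM, 0.98), and -0.07 at day 18 (deposited -0.67). AMOTL2 was thus the gene nearest to the median at the end. The authors' program marked its test as failed in the first 2 steps.

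AMOTL1, its paralog, was lower from day 1 on. FPKM of AMOTL1 (chromosome 11, 94501508 to 94609917, plus strand, 13 exon blocks) was 33.1, 17.1, 16.3, 16.5, 15.1, 13.1 and 8.88. Its log2 change of -0.84 in the first day lay among the lowest 3.65% of records. AMOTL2 over AMOTL1 was 0.674, 1.75, 2.65, 2.21, 1.76, 1.32 and 1.57, so AMOTL1 had the higher level in NSCs and AMOTL2 on every later day.

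LATS2, a kinase that phosphorylates YAP1 and WWTR1 and is itself induced by them, was near its NSC level to day 4 and lower later. Its FPKM (chromosome 13, 21547178 to 21635722, minus strand, 9 exon blocks) was 9.58, 8.53, 9.26, 8.15, 5.78, 3.80 and 2.45. LATS1, the paralog with the same role, was looked at after its values had been seen, and had 10.2, 9.62, 9.71, 9.87, 8.77, 9.06 and 8.29. LATS1 over LATS2 was 1.07, 1.13, 1.05, 1.21, 1.52, 2.38 and 3.39. The kinases had like levels in NSCs and LATS1 was the higher at day 18, and this ratio within a day is free of the scaling between days.

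**Figure D3:**
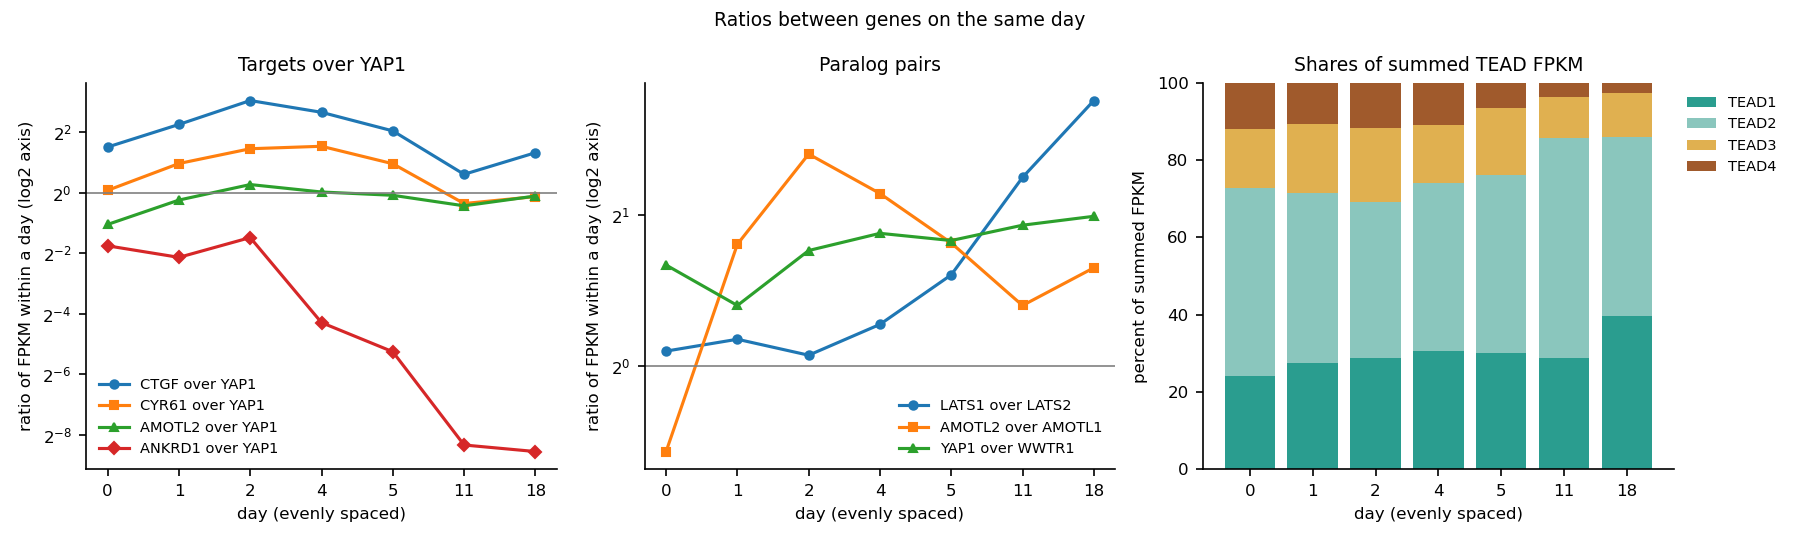
Left and middle, ratios of FPKM between genes of the same day (y axis, log2 scale) against day (x axis, evenly spaced), for targets over YAP1 and for paralog pairs; right, share of each TEAD gene in the summed TEAD FPKM (stacked bars, percent). CTGF over YAP1 peaks at 8.30 at day 2, LATS1 over LATS2 reaches 3.39 at day 18, and TEAD4 shrinks from 11.8% to 2.63%.

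Targets were also set against YAP1 by dividing FPKM values of the same day, ratios that were chosen after the values had been seen. CTGF over YAP1 was 2.86, 4.80, 8.30, 6.34, 4.14, 1.53 and 2.51. CYR61 over YAP1 was 1.06, 1.96, 2.75, 2.91, 1.95, 0.783 and 0.918. Both ratios to YAP1 were highest at day 2 or 4 and were below their day 0 value on days 11 and 18. Set against WWTR1 instead, both ratios were below their day 0 value at day 11 and above it at day 18. CTGF over WWTR1 was 4.53 at day 0 and 2.93 at day 11, and CYR61 over WWTR1 was 1.69 at day 0 and 1.83 at day 18. AMOTL2 over YAP1 was above its day 0 value of 0.485 on every later day, with 0.743 at day 11 and 0.930 at day 18. ANKRD1 over YAP1 was 0.297, 0.228, 0.359, 0.0511, 0.0262, 0.00309 and 0.00266. CTGF over CYR61 stayed between 1.96 and 3.01 on all 7 days.

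Counted over the 10 genes against day 0, none was at least 2-fold from the median at day 1, where 6.76% of all records were. At day 2, 3 genes were at least 2-fold higher (CTGF, CYR61 and AMOTL2; 5.88% of records) and 0 lower (3.49%). At day 4, CYR61 was higher (6.68%) and ANKRD1 lower (4.66%), and at day 5 only ANKRD1 was lower (5.11%). At day 11, 4 of the 10 were at least 2-fold lower (CTGF, CYR61, ANKRD1 and AMOTL1; 8.30% of records). AMOTL1 (-1.01) and LATS2 (-0.99) were on either side of the limit, and the count was 3 with the median over records of at least 10 FPKM or a pseudocount of 1, 5 with a pseudocount of 0.01 or a filter of 0.1 FPKM, and 6 as deposited. At day 18, 8 of the 10 were lower, all but TEAD1 and AMOTL2, against 12.1% of records, and 0 were higher (14.7%). Nothing is read from the day 18 count, since that contrast entered the choice of ANKRD1. The place of ANKRD1 in the counts of days 4, 5 and 11 belongs to the same fall, and nothing is read from it either. The median log2 change of the 10 genes was -0.12, -0.95 and -1.24 on days 2, 11 and 18.

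In the step across replating, the 3 targets were among the lowest of all records. For ANKRD1 this step is part of the fall by which it was chosen, and nothing is read from its place. From day 4 to day 5 the log2 change was -1.13 for ANKRD1, -0.89 for CTGF and -0.85 for CYR61, which ranked 4, 8 and 11 from the lowest of 11793 records. LATS2 (-0.41) and AMOTL2 (-0.38) lay within the lowest 2.30% and 2.76% of records, and YAP1 (-0.27) within the lowest 6.45%. AMOTL1 had -0.05 and TEAD2 -0.07. All 10 genes lay below the median in this step, by between 0.05 and 1.13. At least 2-fold lower was ANKRD1 alone, in a step where 0.0424% of all records were, 5 in number, and with a pseudocount of 1 its change was -0.64. Among further YAP targets averaging at least 1 FPKM, looked at after their values had been seen, the changes in this step went both ways. The highest were NT5E (0.64), MYOF (0.44) and GADD45A (0.36), and the lowest were IGFBP3 (-0.21), NUAK2 (-0.16) and PTPN14 (-0.15). Time in culture, the replating at a set cell density and the change of surface cannot be told apart in this step. Day 5 also rests on 2 cultures.

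The step from day 1 to day 2 had few changes, with 0.271% of records at least 2-fold from the median and none of the 10 genes. Within it, the central 95% of records averaging 30 to 100 FPKM lay between -0.28 and 0.31, and those above 100 between -0.28 and 0.33. For the mean levels of AMOTL2 (10 to 30 FPKM) and ANKRD1 (3 to 10 FPKM) the ranges were -0.28 to 0.29 and -0.38 to 0.43. CTGF had a log2 change of 0.77 (rank 47 from the highest), ANKRD1 0.63 (rank 98), AMOTL2 0.50 (rank 181) and CYR61 0.47 (rank 209). Nothing is read from the rank of ANKRD1, which was chosen by its fall in these data. CTGF, AMOTL2 and CYR61 lay within the highest 1.77% of records. The other feedback regulators did not, with 0.08 for LATS2 and -0.11 for AMOTL1, and YAP1 had -0.02, TEAD1 0.02 and WWTR1 -0.37. Among further YAP targets averaging at least 1 FPKM, looked at after their values had been seen, the changes went both ways. The lowest were RBMS3 (-0.61), TGFB2 (-0.58) and F3 (-0.34), and the highest were CRIM1 (0.50), AXL (0.41) and GADD45A (0.31). RBMS3, TGFB2 and F3 averaged 1 to 3 FPKM, where the central 95% of records lay between -0.65 and 0.62. CRIM1 and WWTR1 averaged 10 to 30 FPKM and lay outside the range of that level, CRIM1 above it and WWTR1 below it. AXL averaged 3 to 10 FPKM and lay inside its range, and GADD45A (30 to 100 FPKM) lay at the upper end. From day 2 to day 4, ANKRD1 was the 1 gene at least 2-fold lower (0.653% of records). From day 5 to day 11, CTGF (-1.54), CYR61 (-1.42) and ANKRD1 (-2.11) were (3.05% of records), of which ANKRD1 had -0.55 with a pseudocount of 1, whereas YAP1 had -0.10, TEAD1 -0.05 and TEAD2 0.31. None of the 10 was from day 11 to day 18, where 3.24% of records were; TEAD2 came nearest with -0.84.

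**Figure D4:**
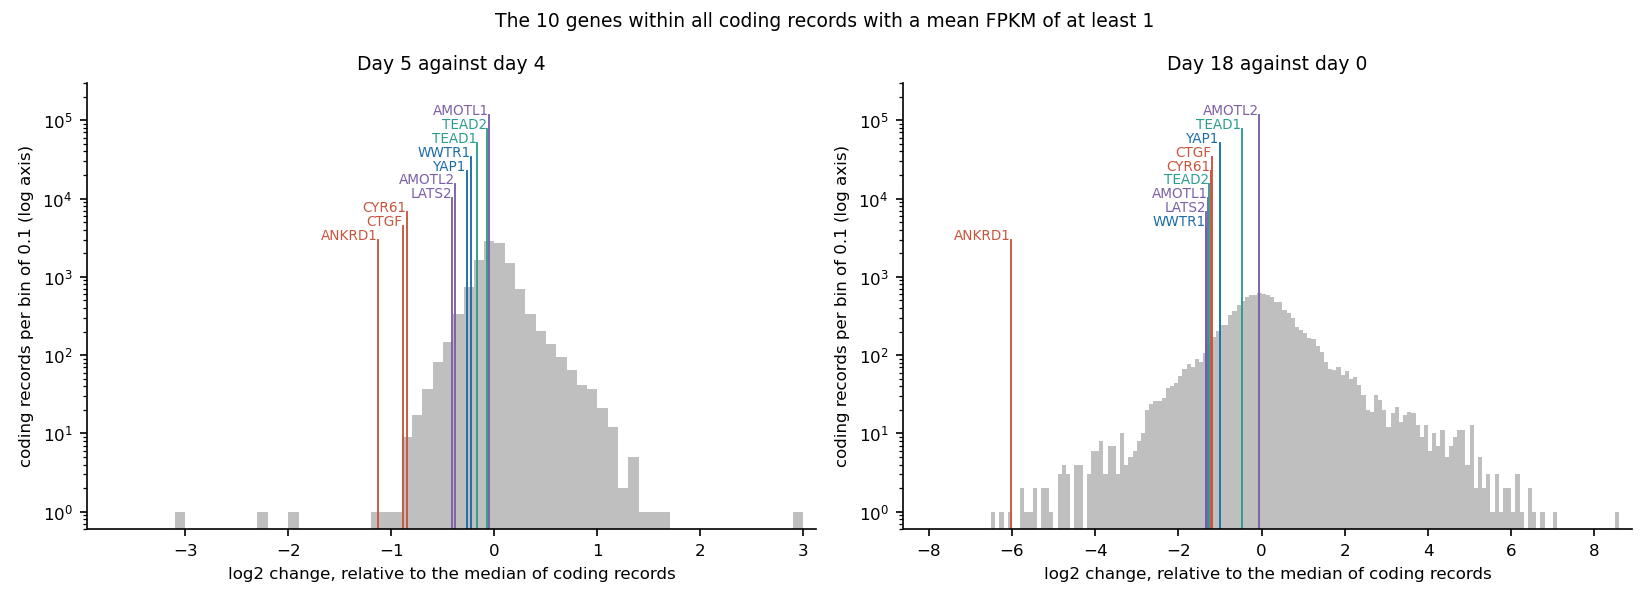
Number of coding records averaging at least 1 FPKM per bin of 0.1 (grey bars, log y axis) by log2 change relative to their median (x axis), with the 10 genes as labelled vertical lines coloured by role; line heights only separate the names. From day 4 to day 5, ANKRD1, CTGF and CYR61 lie at the low edge, at -1.13, -0.89 and -0.85, and from day 0 to day 18 AMOTL2 lies at -0.07.

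The genes were also ordered by level. At day 0, CTGF (131) was followed by TEAD2 (65.7), CYR61 (48.9), YAP1 (46.0), AMOTL1 (33.1), TEAD1 (32.6), WWTR1 (29.0), AMOTL2 (22.3), ANKRD1 (13.6) and LATS2 (9.58). At day 18, CTGF (37.6) and TEAD2 (18.0) still led, TEAD1 (15.4), YAP1 (15.0), AMOTL2 (14.0) and CYR61 (13.8) came next, and LATS2 (2.45) and ANKRD1 (0.0400) were last. Without replicate values, it cannot be said which neighbours in this order differ.

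Genes of the pathway beyond the 10 were taken from lists. Of 17 other YAP target genes, 16 averaged at least 1 FPKM. Of these, 6 were at least 2-fold lower at day 18, 1 was higher and 9 lay within 2-fold of the median, beside 12.1% of all records lower and 14.7% higher. Their median was -0.79 (deposited -1.39, where that of all records was -0.60). The 5 farthest from the median were NT5E, an ectonucleotidase (-3.94), IGFBP3, which binds insulin-like growth factors (-3.23), CCDC80 (-2.42), the phosphatase PTPN14 (-2.28) and MYOF, a membrane repair protein (-2.12). NT5E had 20.7, 4.03, 3.46, 1.86, 2.79, 0.877 and 0.795 FPKM, most of the difference falling in the first day. IGFBP3 had 47.0, 27.0, 30.4, 9.70, 7.95, 0.936 and 3.22 FPKM, lowest at day 11. The gene at least 2-fold higher was TGFB2, a TGF-beta ligand, with 2.02 at day 0 and 3.45 at day 18 (relative 1.35), named after its value was seen. It was not 2-fold higher as deposited, when 13 genes of the list were lower and 0 higher, beside 29.9% of all records lower and 7.57% higher.

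Of 18 records of Hippo kinases and upstream regulators, 2 were at least 2-fold lower at day 18, 2 higher and 14 within 2-fold, shares near those of all records (12.1% lower and 14.7% higher). Their median was -0.21 (deposited -0.81). As deposited, 8 were lower and 2 higher, beside 29.9% and 7.57% of all records. FRMD6, a FERM-domain protein that promotes Hippo signalling, went from 9.25 to 0.698 (log2 change -2.95), and AJUBA, a LIM protein that restrains LATS kinases and is named JUB in the files, from 42.3 to 7.57 (-1.87) after 61.8 at day 2. FAT4, a giant cadherin upstream of the pathway, went from 4.06 to 18.0 (2.72), with the increase mostly between day 5 (7.30) and day 11 (20.0). The kinase TAOK3 went from 4.17 to 11.9 (2.09), and WWC2 from 11.9 to 4.09 (-0.92).

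Of the TEAD family and cofactors, 4 of 6 records averaged at least 1 FPKM, and 3 of these were at least 2-fold lower (12.1% of all records): TEAD3, TEAD4 and VGLL3. VGLL3, a TEAD-binding cofactor, went from 44.1 to 12.7 (log2 change -1.19), while VGLL4, which competes with YAP1 for TEAD, had 18.9 at day 0 and 17.5 at day 18 (0.49). VGLL4 was thus higher relative to the median and lower as deposited (-0.11). Of the 6 paralogs of CTGF, CYR61 and ANKRD1, only ANKRD23 reached a mean FPKM of 1, with 1.73 at day 0 and 1.65 at day 18.

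**Figure D5:**
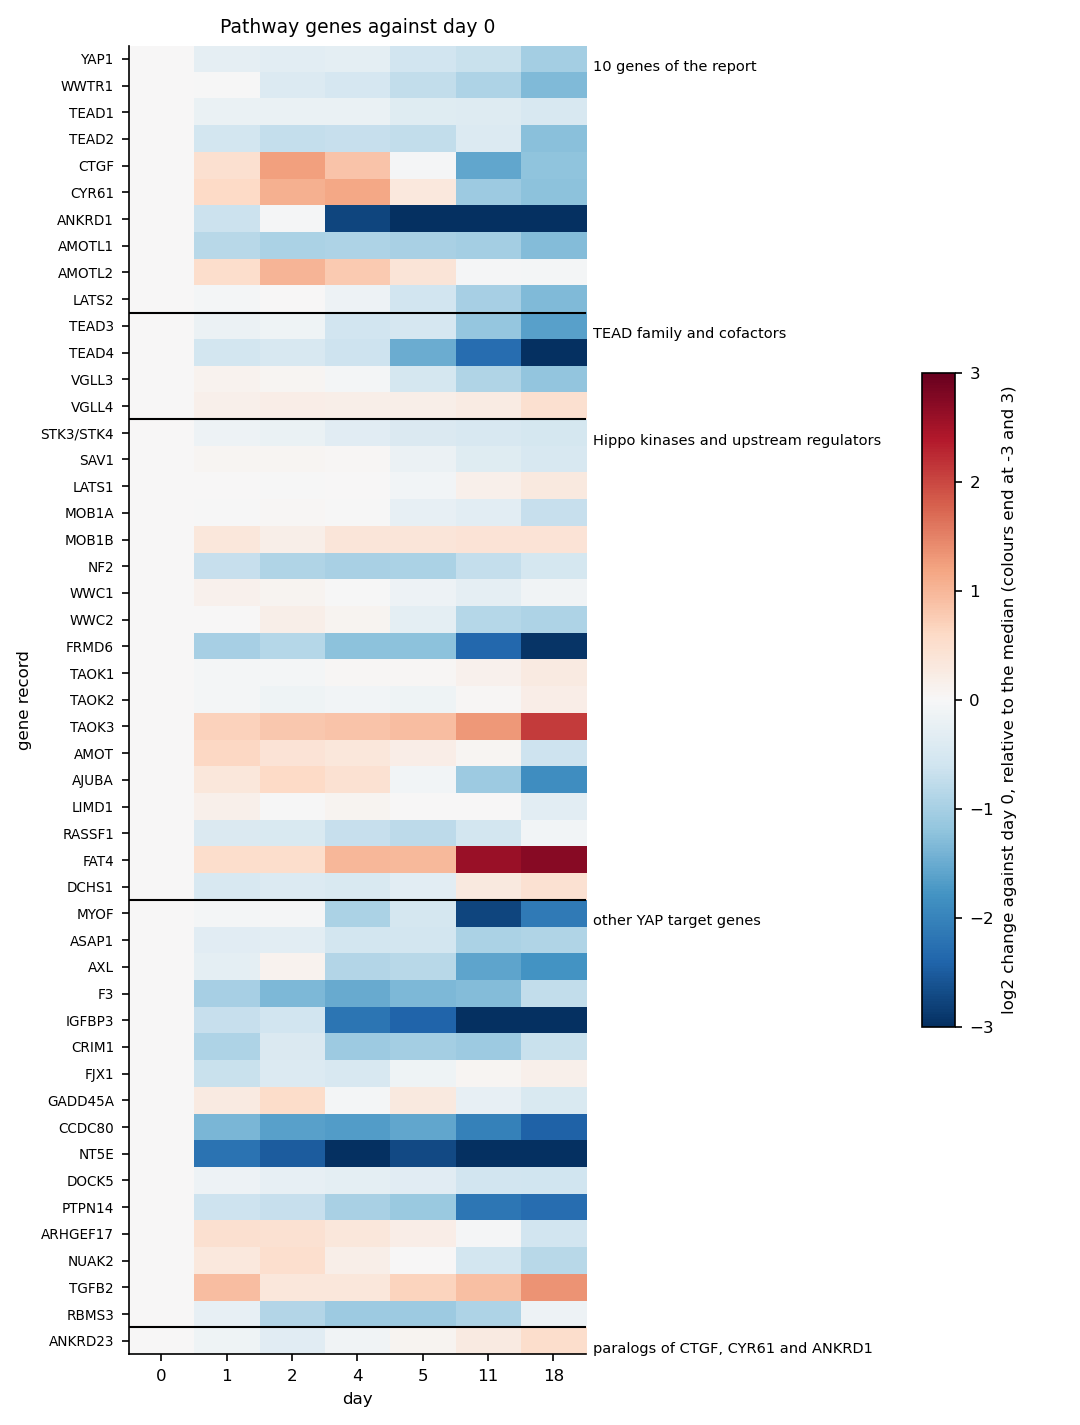
Log2 change against day 0 relative to the median of coding records (colour; blue lower, red higher, ending at -3 and 3) on each day (columns) for the 10 genes and for the pathway records averaging at least 1 FPKM (rows, grouped by list); each cell is 1 pooled value. CTGF, CYR61, AMOTL2 and AJUBA are red at day 2 and white or blue from day 11, while FAT4 and TAOK3 deepen in red to day 18.

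The course over the 7 days was compared with that of the other coding records in the fit by Pearson's r on the relative log2 scale, as a description over 7 pooled values. Nearest to CTGF were PQLC2 (r = 0.995), CHMP2B (0.994), WTIP (0.991), CLTA (0.989) and ZNF330 (0.988), and 89 records had r of at least 0.95. PQLC2 had 11.0, 11.4, 13.1, 12.2, 9.89, 6.37 and 5.98 FPKM, a narrower range than that of CTGF. Nearest to YAP1 were C1orf135 (0.995), FANCA (0.995), NAF1 (0.994), COQ2 (0.994) and C7orf23 (0.994), and 519 records had r of at least 0.95. Among the 10 genes, r was 0.98 for CTGF with CYR61, 0.90 for CTGF with AMOTL2, 0.70 for CTGF with YAP1 and 0.98 for YAP1 with TEAD1. The lowest of the 45 pairs were AMOTL1 with AMOTL2 (-0.12), TEAD2 with AMOTL2 (-0.06) and TEAD2 with CTGF (0.17), and CTGF with AMOTL1 had 0.25.

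Marker levels of several cell types also differed between the days. Summed FPKM of 8 neuron markers went from 174 at day 0 to 1234 at day 18 (STMN2 32.3 to 727), and that of 8 proliferation markers from 635 to 113 (CCNB1 145 to 20.3). The 8 neural progenitor markers summed to 3862 at day 0 and 2061 at day 18, with all 8 at 1 FPKM or more on every day. Most of that sum was VIM (2948 to 1493) and NES (513 to 180). Relative to the median of all records, 0 of the 8 were at least 2-fold lower (12.1% of all records) and 2 higher (14.7%). These were PAX6 (4.31 to 10.4) and FABP7 (195 to 258), and the list's median was 0.08. FABP7 lay at the limit, with a log2 change of 1.0. As deposited, 1 of the 8 was lower (NES, -1.51), 1 was higher (PAX6, 1.25) and the median was -0.52. Of all records, 29.9% were lower as deposited and 7.57% higher. In bulk RNA, fewer cells of a type and less RNA per cell cannot be told apart. Markers of the labelled NSCs and of neurons were thus present.

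Markers of mesenchymal and endothelial cells, which also use YAP and TEAD, were lower at day 18 too. The 10 mesenchymal markers summed to 650, 378, 419, 257, 300, 110 and 57.9 FPKM, with 7 of 10 at 1 FPKM or more at day 0 and 4 of 10 at day 18. COL3A1 (238 to 30.5) and TAGLN (367 to 19.4) held most of this sum, and DCN, a defining fibroblast gene, was at most 0.108. COL1A1 was listed at 0 on every day, while COL1A2 went from 33.6 to 3.81. Whether the program measured the COL1A1 record at all cannot be told here. The 3 endothelial markers with a record summed to 28.6, 5.79, 7.16, 2.78, 4.44, 1.30 and 0.827, with KDR going from 23.8 to 0.700 and CDH5 from 2.34 to 0.0250. Both sums were below day 0 on the days when CTGF and CYR61 were highest. From day 1 to day 2, however, both sums went up (378 to 419 and 5.79 to 7.16), as did CTGF and CYR61. The 4 astrocyte markers summed to 9.22 in NSCs and 4.52 at the end, mainly S100B (8.68 and 4.25), and GFAP was at most 0.186. Of the pluripotency markers DPPA4 had 9.72 and 2.25, while POU5F1 was at most 0.108 and NANOG at most 0.0207. The part of other cell types in the changes of the 10 genes was not tested.

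Exons of other records overlap those of the members on the opposite strand. The programs' default options do not separate strands, so the values of overlapping records are uncertain. The records named linc-CYR61-AS and linc-ANKRD1-AS cover 100% of the exon bases of CYR61 and ANKRD1, and had at most 3.50 and 0.491 FPKM. For YAP1 the overlapping antisense record covers 55.4% of the exon bases and stayed at or below 0.0325, and for AMOTL2 it covers 96.1% and stayed at or below 0.474. An antisense record that covers 12.6% of the WWTR1 exon bases was at 21.2 at day 0 and 5.66 at day 18, the highest level among the overlapping antisense records, and on each day below that of WWTR1. LATS2 had no such overlap.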

How the data were processed

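Per the study's methods and the submitters' processing notes, paired-end reads were aligned by the authors with TopHat2 (hg19), transcripts were built with Cufflinks, and Cuffdiff2 gave FPKM values and tests between adjacent days, with default options. Versions are not given in the sources used here. The deposited FPKM matrix holds 1 value per record and day over its cultures; 0 columns held a single sample. The second deposited table supplied symbols, exon coordinates, strand and test status. Its columns of the authors' own comparisons (values, log2 fold changes, test statistics, p-values and q-values) were not used.

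Samples were grouped by title. The designed limma test on single samples could not be run, so changes were described as log2 ratios with a pseudocount of 0.1, minus the median over coding records averaging at least 1 FPKM, and counted at 2-fold. The step was tested on simulated data. Python 3.11.15, numpy 2.4.6, pandas 2.3.3 and matplotlib 3.10.9 were used. Alternatives were the deposited scale, a median over records of at least 10 FPKM, pseudocounts of 1 and 0.01, a 1.5-fold limit and a filter of 0.1. The 10 genes and all lists were chosen with earlier results of these data known. Besides the 10 genes, the 5 records of each pathway list farthest from the median at day 18, the highest record of each marker list and the 5 nearest courses to CTGF and YAP1 were to be named. Records of STK3 and STK4, DOCK5 and PDGFRB merge several symbols, and PECAM1 and LIN28A had no record. The depth is unknown.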

Additional observations from a re-analysis of the deposited data

How the results depend on the processing

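No paired analysis was possible because the deposited values pool the cultures of each day; the planned replicate block and the fits without each replicate were not run for the same reason. Of 157 counts recomputed under the alternatives, 135 stayed within 1.5 times of the reported count. Many of the reported counts were 0 and stayed 0, so this number does not measure how stable the other counts are. On the deposited scale, members at least 2-fold lower than day 0 numbered 1, 2 and 2 on days 2, 4 and 5, and 1 member was changed in the step from day 11 to 18; 8 Hippo kinases and regulators were lower at day 18, and among other YAP targets 13 were lower and 0 higher. With a 1.5-fold limit, members lower than day 0 numbered 2, 2, 3, 4 and 7 on days 1, 2, 4, 5 and 11, and members higher numbered 1 and 3 on days 1 and 4. With the same limit, 3, 2, 3 and 1 members changed in the steps 0 to 1, 1 to 2, 4 to 5 and 11 to 18, and 5 Hippo kinases and regulators and 11 other YAP targets were lower at day 18. The filter of 0.1 FPKM gave 2 members lower at day 5, and the pseudocount of 1 gave 0 members changed from day 4 to day 5. Without replicate values or depth, differences between neighbouring levels cannot be judged.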

Other observations

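ANKRD1 was lower at day 1 than on days 0 and 2, as were TAGLN, AXL and MYOF. FPKM of TAGLN, an actin-binding protein of smooth muscle, was 367, 106, 226, 92.4, 147, 21.9 and 19.4, in order of time. AXL, a receptor tyrosine kinase and YAP target, had 15.7, 11.8, 16.2, 8.07, 7.94, 4.13 and 2.92. MYOF had 16.2, 14.4, 15.2, 7.87, 10.2, 1.83 and 2.37. CTGF and CYR61, in contrast, were higher at day 1 than at day 0. The choice of these genes followed a look at their values, and no cause was tested.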
